A study of Homo sapiens with 2 samples.

Results

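Genes of the RAS-MAPK pathway and its feedback inhibitors were examined in SUM159 triple-negative breast cancer cells that had become resistant to doxorubicin. The 35 genes were taken by symbol from a list drawn up by role, out of 23368 symbols counted, and all of them were present in both libraries. They comprised 5 RAS and RAF genes, 2 genes of RAS activation and scaffolding, 3 RAS GTPase-activating proteins, 6 MEK and MAPK genes, 10 DUSP phosphatases, 6 Sprouty and SPRED inhibitors, 2 ETS factors and the ERK anchor PEA15. The samples were 2 bulk RNA-seq libraries of polyadenylated RNA, replicates 1 and 2 of a single group. These SUM159 cells were labelled wild type, were grown attached in a monolayer, and had been made resistant by long-term doxorubicin treatment with escalating doses and recovery in drug-free medium. Treatment-naïve cells were not analysed here, so each value is a level in resistant cells and no change upon resistance was measured. The labels do not say that the libraries came from separate cultures, and the spread between them may be technical. No mutation can be read from counts per gene.

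RAS proteins are small GTPases that switch on when an exchange factor such as SOS1 loads them with GTP, and switch off when a GTPase-activating protein such as neurofibromin, the NF1 product, speeds GTP hydrolysis. Active RAS recruits RAF kinases, which phosphorylate the MEK kinases, which phosphorylate the ERK kinases. ERK signaling induces its own brakes, among them DUSP phosphatases that dephosphorylate MAP kinases and the Sprouty and SPRED proteins that act near RAS, as well as ETS transcription factors of the ETV4 and ETV5 group. Transcript levels of these output genes are widely used as a readout of the pathway, while the activity of the kinases themselves is set by phosphorylation and is not seen in RNA.

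The counts in genes summed to 23044084 in replicate 1 and 17985508 in replicate 2, so that a single count was worth 0.0434 and 0.0556 counts per 1000000 counts (CPM). Of 5 mesenchymal markers, VIM reached 8159 and 6925 CPM and was higher in replicate 1, and the other 4 were higher in replicate 2, among them FN1 with 2027 and 5101 CPM. The epithelial markers CDH1 and EPCAM stayed at or below 13 counts in each library, although the keratins KRT8 and KRT18 were abundant. Of the receptors that define the triple-negative class, ESR1 had 11 and 9 counts, PGR had 2 and 0, and ERBB2 had 95.1 and 104 CPM. Among 3 leukocyte and 4 endothelial and blood markers, the summed level was 17.5 and 9.34 CPM and 1.08 and 1.11 CPM in replicates 1 and 2. CD3E, VWF and HBB were at 0 in both, while CD14 gave 356 and 137 counts and PTPRC gave 48 and 31 counts.

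All 35 genes reached a mean count of 20, the minimum that the study applied to bulk RNA-seq, against 52.8% of all symbols. Their median level was 54.6 CPM, and the median over the 12340 symbols that reached the minimum was 34.1 CPM. The list was chosen with earlier results of these data known, and of 62 other genes of the pathway 50 reached that minimum. These figures therefore describe the chosen genes and not the pathway as a whole. Of the 35 genes, 19 had a mean above 50 CPM, 12 lay between 10 and 50 CPM, and BRAF, DUSP2, SPRY1 and SPRED3 lay below 10 CPM. In bulk RNA, fewer cells that express a gene and less RNA per cell cannot be told apart. The lowest single count was 20, of SPRED3 in replicate 1. Together the 35 genes took 2094 CPM in replicate 1 and 2224 CPM in replicate 2.

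**Figure D1:**
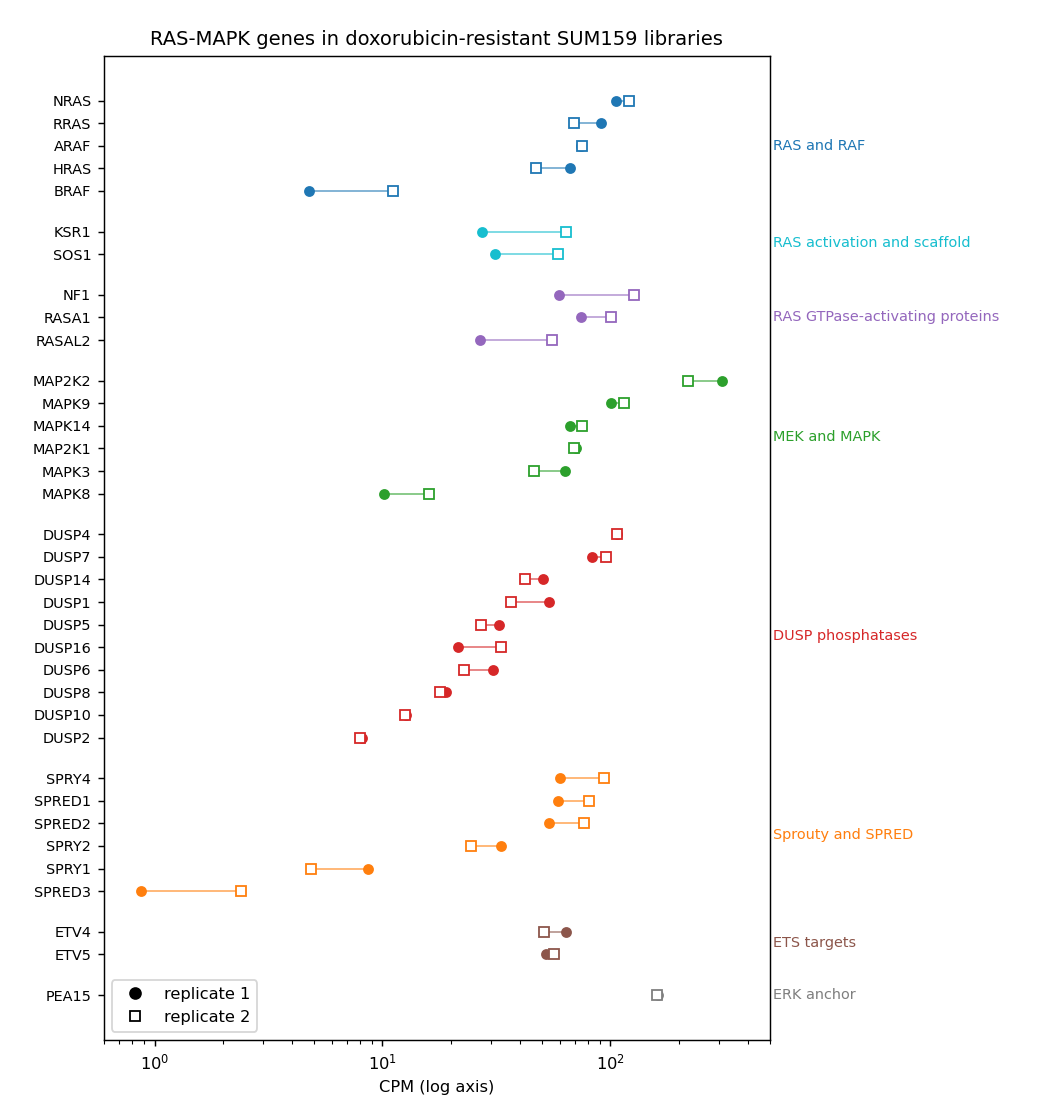
CPM on a log axis for the 35 genes, grouped by role. Filled circles are replicate 1, open squares replicate 2, and a line joins both values of a gene, from SPRED3 with a mean of 1.63 CPM to MAP2K2 with 264 CPM. NF1, KSR1, SOS1 and RASAL2 lie farther right in replicate 2, and MAP2K2, HRAS and DUSP1 in replicate 1.

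To compare genes with each other, CPM were divided by the length of the Ensembl canonical transcript in kilobases (RPKM). The length that the authors counted over was not given in the sources used here, so levels and the order of genes depend on the length chosen. On this scale MAP2K2 was the highest of the 35 genes with 153 ± 36.2 RPKM (SD, n = 2). It was followed by RRAS with 81.4 ± 15.7 RPKM, PEA15 with 66.7 ± 0.392 RPKM and HRAS with 53.1 ± 12.6 RPKM (SD, n = 2 each). The values of these 4 genes did not overlap, although RRAS and PEA15 differed by less than the SD of RRAS, and both MAP2K2 values lay above all others. Per kilobase of all annotated exons this order changed, with 39.7 and 28.3 RPKM for MAP2K2, 82.8 and 62.9 RPKM for RRAS and 58.7 and 58.2 RPKM for PEA15. Which gene was the highest was therefore not settled by these counts. With the canonical transcript the low end held SPRED3 with 0.340 ± 0.225, BRAF with 1.23 ± 0.695 and MAPK8 with 2.26 ± 0.720 RPKM (SD, n = 2 each).

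All 3 RAS GTPase genes on the list were well expressed, and positions here are those of GRCh37. NRAS (chr1:115247090-115259392) was counted 2434 times in replicate 1 and 2168 times in replicate 2, or 106 and 121 CPM. HRAS (chr11:532242-537321) gave 1529 and 851 counts, or 66.4 and 47.3 CPM. RRAS, a RAS relative better known for integrin-dependent adhesion, lies at chr19:50138549-50143400 and gave 2102 and 1247 counts, or 91.2 and 69.3 CPM. HRAS and RRAS were thus higher in replicate 1 and NRAS in replicate 2. Per kilobase of all annotated exons, the log2 ratio of HRAS over NRAS was 0.16 in replicate 1 and −0.52 in replicate 2, so that neither gene led in both libraries. The same ratio was 1.34 and 0.67 with the canonical transcript and −0.67 and −1.35 with the coding sequence, and which of these genes had more transcripts therefore cannot be told from these counts. For RRAS over NRAS it was 1.76 and 1.18 with all exons, but its mean was −0.71 with the coding sequence.

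The RAF kinases differed far more. ARAF (chrX:47420604-47431307) gave 1709 and 1346 counts, or 74.2 and 74.8 CPM. BRAF (chr7:140419127-140624729) gave 110 and 200 counts, or 4.77 and 11.1 CPM. The log2 ratio of ARAF over BRAF per kilobase of exon was 6.74 in replicate 1 and 5.53 in replicate 2. With the coding sequence, the length that favored BRAF most, it was still 4.37 and 3.16. BRAF lay above 19.4% of the genes that reached the minimum count and ARAF above 73.7%. The BRAF level is uncertain, since its exons overlap 1239 bp of NDUFB2 on the opposite strand and BRAFP1 is a pseudogene copy of it. Whether the counting used strand was not stated. The same holds for smaller overlaps of ARAF with SYN1, NF1 with EVI2A, RASA1 with CCNH, MAP2K1 with SNAPC5 and ETV4 with DHX8, while ETV5 overlaps DGKG on the same strand. ARAF, KSR1, MAP2K1, DUSP5 and DUSP8 also have pseudogene copies.

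SOS1, the exchange factor that loads RAS with GTP, and KSR1, a scaffold that holds RAF, MEK and ERK together, were both higher in replicate 2. Of all genes tested, 30.1% were called higher in that library. SOS1 gave 718 and 1061 counts, or 31.2 and 59.0 CPM, and KSR1 gave 628 and 1154 counts, or 27.3 and 64.2 CPM. KSR1 was at a log2 ratio of −1.23 for replicate 1 over replicate 2 (adjusted p = 5.22e-69, exact binomial test of edgeR). This test covers counting error only and compares libraries, not conditions.

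The GTPase-activating proteins that turn RAS off were also all higher in replicate 2, against 30.1% of all genes tested. By totals the log2 ratio of replicate 1 over replicate 2 was −1.08 for NF1, −0.43 for RASA1 and −1.05 for RASAL2. Relative to the trend on gene length described below, it was −0.39, −0.41 and −0.55. NF1 (chr17:29421945-29709134) gave 1377 and 2278 counts, or 59.8 and 127 CPM, and RASA1 had 1717 and 1803 counts, or 74.5 and 100 CPM. RASAL2 had 619 and 1000 counts, or 26.9 and 55.6 CPM. NF1 lay below RASA1 per kilobase of exon in both libraries, at log2 ratios of −3.29 and −2.64, and at −1.76 and −1.11 per kilobase of coding sequence. Without division by length the mean log2 ratio was 0.0095, and the level of NF1 is uncertain because the annotation holds 11 pseudogene copies of it.

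Of the MEK genes, MAP2K2, which encodes MEK2, was the more abundant. It lies at chr19:4090319-4124119 and gave 7102 and 3954 counts, or 308 and 220 CPM, above 94.7% of the genes that reached the minimum count. MAP2K1, which encodes MEK1 and lies at chr15:66679175-66783994, gave 1636 and 1249 counts, or 71.0 and 69.4 CPM. The log2 ratio of MAP2K2 over MAP2K1 was 1.85 and 1.40 per kilobase of exon, and its mean was between 1.62 and 2.45 under the 4 lengths used. MAP2K2 exceeded MAP2K1 in both libraries under each of these lengths.

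MAPK3, the gene of the kinase ERK1, had 1452 and 832 counts, or 63.0 and 46.3 CPM. The stress-activated kinases were represented by p38α, the MAPK14 product, with 66.8 and 75.3 CPM, and by the JNK genes MAPK8 and MAPK9. MAPK9, which encodes JNK2, had 2309 and 2069 counts, or 100 and 115 CPM. MAPK8, which encodes JNK1, had 234 and 289 counts, or 10.2 and 16.1 CPM. Both MAPK9 values lay far above both MAPK8 values, at a log2 ratio of 3.41 and 2.95 per kilobase of exon and a mean between 3.08 and 3.40 under the 4 lengths. MAPK3 over MAPK14 was 0.80 and 0.18 per kilobase of exon but −0.16 and −0.78 per kilobase of coding sequence, so their order rests on the length. PEA15, a small protein that binds ERK and keeps it in the cytoplasm, had 3735 and 2891 counts, or 162 and 161 CPM, and did not differ by totals.

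**Figure D2:**
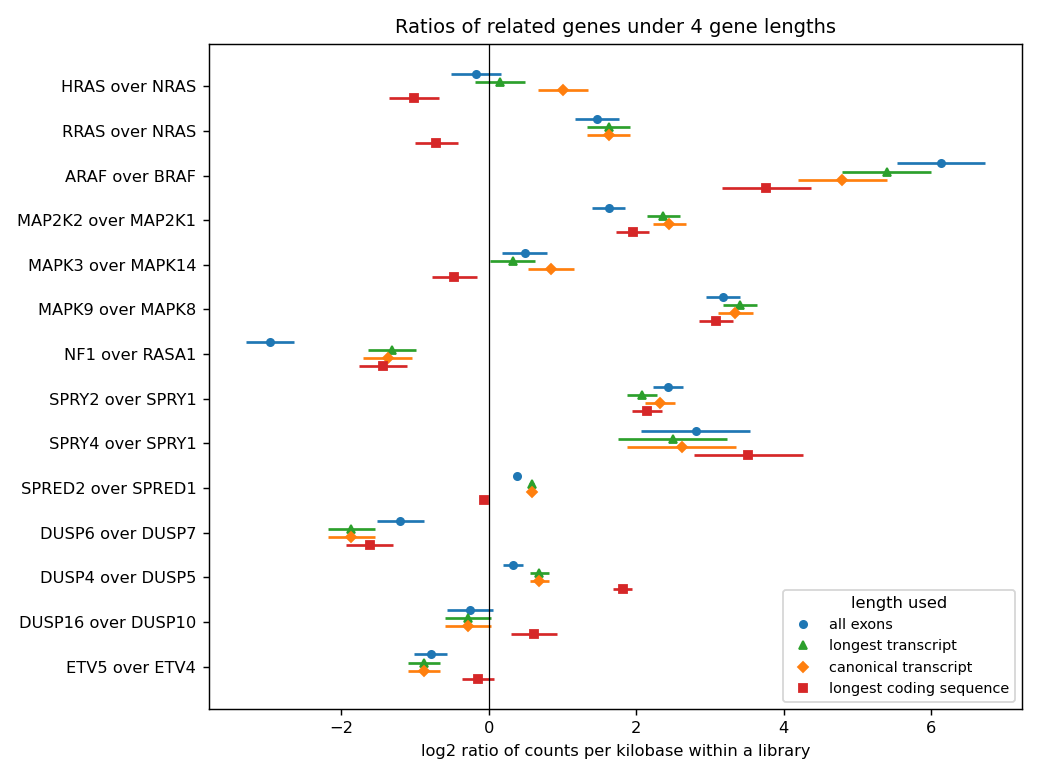
Log2 ratio of counts per kilobase of the first over the second gene within a library, for 14 pairs of related genes. Markers are means of both libraries, horizontal lines run between the libraries, and colors give the gene length used, with ARAF over BRAF, MAP2K2 over MAP2K1 and MAPK9 over MAPK8 to the right of 0 under all 4 lengths and HRAS over NRAS on both sides.

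Every DUSP gene on the list, which was chosen with earlier results known, was expressed, with means between 8.05 and 107 CPM. DUSP4, a nuclear phosphatase of ERK and JNK at chr8:29190581-29208201, gave 2468 and 1923 counts and had the log2 ratio nearest to 0 of these genes, at 107 CPM in each library. DUSP7, a cytoplasmic ERK phosphatase, had 82.7 and 96.0 CPM. DUSP6, its ERK-selective relative and a widely used readout of ERK activity, lies at chr12:89741012-89746278 and gave 705 and 411 counts, or 30.6 and 22.9 CPM. DUSP6 lay below DUSP7 in both libraries under every length used, at log2 ratios of −0.88 and −1.52 per kilobase of exon. DUSP5, a nuclear ERK phosphatase, had 32.5 and 27.0 CPM. DUSP4 over DUSP5 was 0.20 and 0.46 per kilobase of exon and 1.68 and 1.95 per kilobase of coding sequence.

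DUSP1, the first MAP kinase phosphatase to be described and an immediate early gene, had 1245 and 659 counts, or 54.0 and 36.6 CPM. DUSP14, a small phosphatase, had 50.6 and 42.4 CPM. Of the phosphatases that prefer the stress kinases JNK and p38, DUSP16 had 21.5 and 33.0 CPM, DUSP8 had 19.0 and 17.8 CPM, and DUSP10 had 12.7 and 12.6 CPM. DUSP2, an inducible phosphatase best known in lymphocytes, had 188 and 143 counts, or 8.16 and 7.95 CPM, the lowest CPM of the 10 DUSP genes on the list. DUSP1, DUSP5, DUSP6 and DUSP14 were higher in replicate 1, DUSP7 and DUSP16 were higher in replicate 2, and DUSP2, DUSP4, DUSP8 and DUSP10 did not pass the test. Of all genes tested, 57.7% were called, 27.6% as higher in replicate 1 and 30.1% as higher in replicate 2. DUSP5 and DUSP14 did not pass the test against the length trend described below. DUSP16 over DUSP10 was −0.57 and 0.053 per kilobase of exon, on both sides of 0.

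Promoters of 30 of the 35 genes, 44 sequences from RefSeq of GRCh38.p14 that run from 250 bases before to 50 bases after a start site, were searched for 3 motifs on both strands. RRAS, DUSP4, DUSP5, ETV4 and ETV5 were not matched. The palindromic cyclic AMP response element TGACGTCA, the site of CREB and ATF factors, was found in DUSP1, DUSP8 and NF1, in 3 of 44 sequences against 1.85% of all 35116 promoters. The ETS motif CCGGAAG was found in HRAS, NRAS, NF1, MAPK9 and SPRY1, in 5 sequences against 10.3% of all promoters. The AP-1 motif TGANTCA was found in KSR1, SPRED2 and SPRED3, in 3 sequences against 7.71%. A match is a description of the letters and not evidence of binding. The 3 sequences with the response element are given because DUSP1 and DUSP8 share it and differed in their levels, and the element is in capitals. They were found unchanged in GRCh37, at chr5:172198199-172198448 on the minus strand, chr11:1593502-1593751 on the minus strand and chr17:29421745-29421944 on the plus strand.
DUSP1: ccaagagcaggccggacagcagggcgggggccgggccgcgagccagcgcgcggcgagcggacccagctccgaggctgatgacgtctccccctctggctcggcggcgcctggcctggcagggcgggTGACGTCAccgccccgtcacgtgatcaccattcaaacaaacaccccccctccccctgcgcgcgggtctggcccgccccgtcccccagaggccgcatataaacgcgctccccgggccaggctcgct
DUSP8: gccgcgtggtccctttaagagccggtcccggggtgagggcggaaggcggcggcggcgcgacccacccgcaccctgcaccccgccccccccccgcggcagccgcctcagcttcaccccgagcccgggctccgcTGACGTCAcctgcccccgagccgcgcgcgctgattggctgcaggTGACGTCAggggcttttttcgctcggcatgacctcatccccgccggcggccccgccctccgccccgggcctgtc
NF1: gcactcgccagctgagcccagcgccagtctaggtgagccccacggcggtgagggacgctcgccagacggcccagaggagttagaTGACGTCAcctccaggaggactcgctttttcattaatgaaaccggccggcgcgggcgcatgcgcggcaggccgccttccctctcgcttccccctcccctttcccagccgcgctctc
In DUSP1 the element begins 125 bases before the RefSeq start site, in DUSP8 118 and 74 bases before it, and in NF1 166 bases before it. The NF1 sequence was cut to 200 bases and ends where the GENCODE gene begins, short of the RefSeq start, whereas the others hold 250 bases. By the canonical transcript, DUSP1 with 1 copy had 26.8 and 18.2 RPKM and DUSP8 with 2 copies had 3.94 and 3.70 RPKM. NF1 with 1 copy had 4.83 and 10.2 RPKM. Per kilobase of all exons DUSP8 had 3.83 and 3.60 RPKM and NF1 had 1.45 and 3.08 RPKM, so their order depends on the length. A relation between copies and level was not tested.

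The 6 Sprouty and SPRED inhibitors had means between 1.63 and 76.8 CPM. SPRY4 (chr5:141689992-141706020) gave 1388 and 1681 counts, or 60.2 and 93.5 CPM. SPRY2 (chr13:80910111-80915261) gave 763 and 440 counts, or 33.1 and 24.5 CPM, and SPRY1 had 200 and 87 counts, or 8.68 and 4.84 CPM. Sprouty proteins block signaling between growth factor receptors and RAF, and all 3 genes are induced by the pathway in many cells. Per kilobase of exon, the log2 ratio to SPRY1 was 2.23 and 2.64 for SPRY2 and 2.07 and 3.55 for SPRY4. SPRY1 was the lowest of the 3 in both libraries under all 4 lengths.

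SPRED1, which brings neurofibromin to the plasma membrane, had 1359 and 1448 counts, or 59.0 and 80.5 CPM. SPRED2 had 1239 and 1372 counts, or 53.8 and 76.3 CPM. The 2 genes moved together between the libraries, and their log2 ratio per kilobase of exon, SPRED2 over SPRED1, was 0.36 and 0.42. With the coding sequence it was −0.096 and −0.040. SPRED3 had 20 and 43 counts, or 0.868 and 2.39 CPM, above 4.19% of the genes that reached the minimum.

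The ETS factors ETV4 and ETV5, whose transcripts are induced by ERK signaling, were present at similar CPM. ETV4 (chr17:41605212-41656988) gave 1474 and 919 counts, or 64.0 and 51.1 CPM. ETV5 (chr3:185764103-185828107) gave 1204 and 1017 counts, or 52.2 and 56.5 CPM. ETV4 was higher in replicate 1 (adjusted p = 2.65e-07, exact binomial test) and ETV5 did not pass the test (adjusted p = 0.105). ETV5 over ETV4 was −1.01 and −0.57 per kilobase of exon and −0.37 and 0.071 per kilobase of coding sequence.

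Between the libraries, 27 of the 35 genes differed beyond counting error in the exact binomial test of edgeR, at an adjusted p below 0.05 over 13744 genes, where 57.7% of all genes tested were called. Of these, 11 were higher in replicate 1, against 27.6% of all genes, and 16 were higher in replicate 2, against 30.1%. The genes differed by a median of 0.43 on the log2 scale in either direction, against 0.31 over all genes tested. A log2 ratio of at least 1 in size was reached by 5 genes, against 5.47% of all genes, and these were BRAF, KSR1, NF1, RASAL2 and SPRED3, all higher in replicate 2. Long genes tended to be higher in replicate 2, and the rank correlation (Spearman) of exonic length with the ratio was −0.52 over 11781 genes. Genes are not independent replicates, and this is given as a description. It was −0.73 over the 35 genes, and 15 of the 18 genes with at least the median exonic length of 5505 bp were lower in replicate 1, against 3 of the 17 shorter ones.

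**Figure D3:**
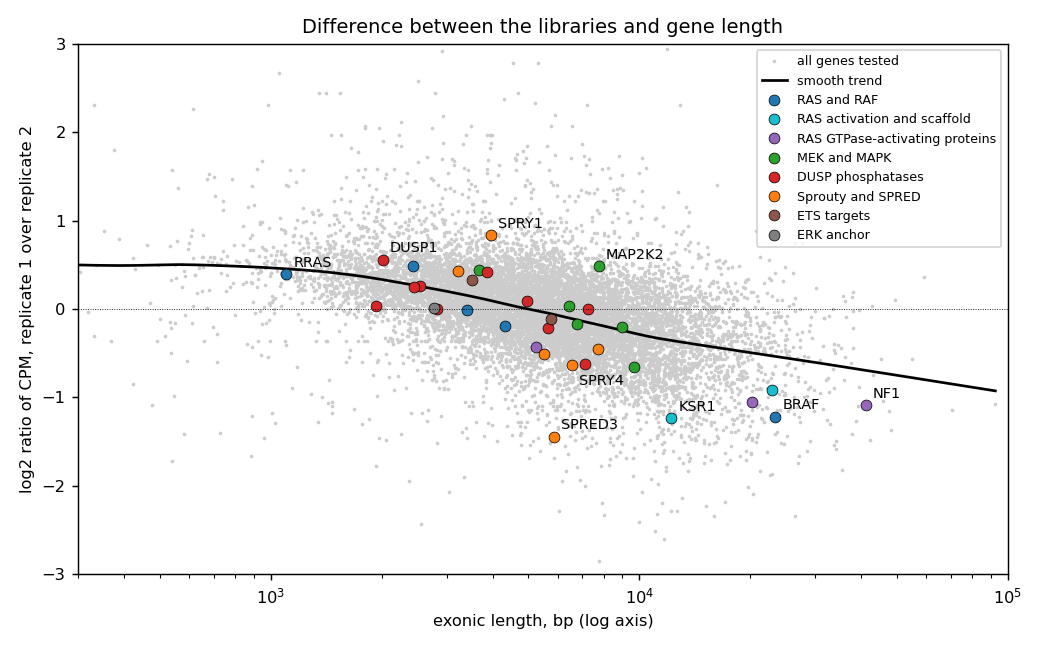
Log2 ratio of CPM, replicate 1 over replicate 2, against exonic length on a log axis. Gray points are 11781 genes tested, of which 102 lie outside the axes, the black line is a smooth trend, and colored points are the 35 genes, with KSR1 at −1.23, BRAF at −1.22 and NF1 at −1.08 among long genes and MAP2K2 at 0.49 above the trend.

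When each gene was tested against the smooth trend on exonic length instead of the library totals, 26 of the 35 genes differed, against 52.8% of all genes with a length. Of these, 10 were higher in replicate 1, against 26.1% of all genes, and 16 were higher in replicate 2, against 26.8%. Both ways of testing called 22 of the genes in the same direction, a count for which the share over all genes was not computed. The median distance from the trend was 0.26 for the 35 genes and 0.25 for all genes. MAP2K2 lay farthest above the trend after SPRY1, at a log2 ratio of 0.67 (adjusted p = 4.2e-122, exact binomial test), and SPRY1 at 0.74 (adjusted p = 0.000111). SPRED3 lay farthest below it at −1.38, followed by KSR1 at −0.88 and BRAF at −0.68. The trend was fitted on the length of all annotated exons only, and for some genes other lengths differ widely from it. MAP2K2 has 7767 bp of exons against 1727 bp in its canonical transcript, and BRAF has 23433 against 6459 bp. Distances from a trend on another length were not tested. RRAS, MAPK9, MAPK14, DUSP5 and DUSP14 differed by totals and did not pass the test against the trend. Conversely, ARAF at −0.17, MAP2K1 at 0.13, DUSP4 at 0.15 and PEA15 at −0.22 passed it (adjusted p = 0.00382, 0.0275, 0.00113 and 7.41e-09, exact binomial test) without differing by totals.

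The feedback genes did not differ between the libraries in 1 direction. DUSP1 was higher in replicate 1 at a log2 ratio of 0.56 (adjusted p = 1.8e-15, exact binomial test), and so were SPRY1 at 0.84, SPRY2 at 0.44, DUSP6 at 0.42 and ETV4 at 0.32. SPRY4 was lower in replicate 1 at −0.63 (adjusted p = 7.33e-33), as were SPRED1 at −0.45 and SPRED2 at −0.50. DUSP4 was at 0.0023 and ETV5 at −0.11. After the length trend DUSP1 remained at 0.23 (adjusted p = 0.00262), SPRY2 at 0.26, DUSP6 at 0.31 and SPRY4 at −0.53.

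Immediate early genes, which are induced within minutes of a growth factor, included the largest log2 ratio among the pathway genes named. FOS had 1007 counts in replicate 1 and 80 in replicate 2, or 43.7 and 4.45 CPM, a log2 ratio of 3.29 (adjusted p = 6.19e-157, exact binomial test). EGR1 had 171 and 55.2 CPM, IER2 had 117 and 67.6 CPM, and JUN had 198 and 156 CPM. FOSB was low and similar with 50 and 38 counts. FOSL1, a later member of the FOS family that follows sustained ERK signaling, was lower in replicate 1 with 128 CPM, against 214 CPM in replicate 2, a log2 ratio of −0.74. The list of immediate early genes used here includes FOSL1. Of its 6 genes, 4 were higher in replicate 1 and 1 was higher in replicate 2, against 27.6% and 30.1% of all genes tested. The summed level of the list was 660 and 499 CPM. FOS, EGR1, IER2 and JUN were higher in replicate 1 like DUSP1, FOSL1 was not, and their part in the difference of DUSP1 was not tested.

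**Figure D4:**
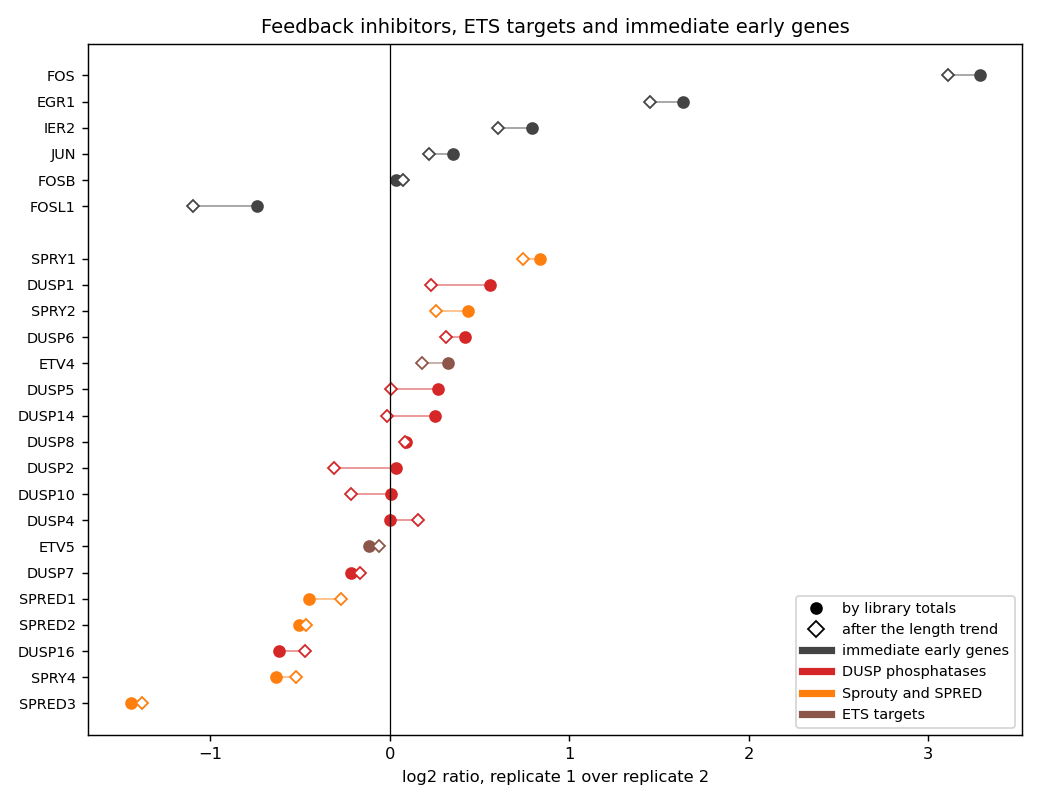
Log2 ratio, replicate 1 over replicate 2, of the 6 genes on the immediate early list in gray and of the DUSP, Sprouty, SPRED and ETV genes in color. Circles are ratios by library totals and diamonds those after the length trend, with FOS at 3.29 and EGR1 at 1.63 on the far right, SPRY1 at 0.84 and DUSP1 at 0.56 right of 0 and SPRY4 at −0.63 left of it.

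Of 62 other genes of the pathway, 50 reached a mean count of 20. Among adaptors and exchange factors 8 of 11 did, led by the adaptor SHC1 with 390 and 364 CPM, and the phosphatase PTPN11, a positive regulator of RAS, had 174 and 334 CPM. RASGRF1, RASGRF2 and RASGRP2, exchange factors mainly of neurons and blood cells, had at most 3 counts in a library. From the same list, RASGRP3 had 174 and 185 counts and RASGRP1 had 19 and 24 counts, and both reached the minimum. The SOS1 relative SOS2 had 30.6 and 46.6 CPM, higher in replicate 2 like SOS1. Among other RAS and GTPase-activating genes 5 of 8 reached the minimum, with RRAS2 the highest in CPM at 66.1 and 58.4, and RASAL1 and RASAL3 had no counts, which allows up to 0.130 and 0.167 CPM if 3 counts are taken as the limit and counting error alone is covered. Of 5 scaffold genes 4 reached it, IQGAP1 with 250 and 477 CPM at the top, and KSR2, the relative of KSR1, had 2 counts in each library.

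Of 11 other MAP2K and MAPK genes 8 reached the minimum. MAPK12, which encodes p38γ, had 68.3 and 54.4 CPM and MAPK11, which encodes p38β, had 18.1 and 12.7 CPM, whereas MAPK13 had 17 and 10 counts. MAPK10, which encodes the neuronal kinase JNK3, had 1 and 0 counts. MAPK6, which encodes the atypical kinase ERK3, was the highest in CPM with 66.5 and 96.5. All 7 kinases downstream of MAP kinases reached the minimum, from RPS6KA5 with 5.16 and 7.45 CPM to MKNK2 with 131 and 110 CPM. Among other inhibitors, DUSP3 had 120 and 135 CPM, DUSP22 had 12.5 and 11.0 CPM, DUSP9 had 13 and 5 counts, and SPRY3 had no counts. All 6 further ETS genes reached the minimum, ETS2 being the highest in CPM with 300 and 311 and ELK3 the lowest with 31.5 and 55.4. The 4 other output genes of the pathway also reached it: CCND1, the cyclin D1 gene, with 712 and 881 CPM, EPHA2 with 168 and 170 CPM, PHLDA1 with 157 and 151 CPM and EPHA4 with 34.5 and 52.2 CPM. Between the libraries, 34 of the 53 other genes tested differed beyond counting error, 14 of them higher in replicate 1 and 20 higher in replicate 2, against 57.7%, 27.6% and 30.1% of all genes tested.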

How the data were processed

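Bulk RNA-seq libraries of doxorubicin-resistant SUM159 cells, 2 replicates of 1 group, were analysed. The authors used the NEBNext Ultra II directional kit, mapped reads to hg19 with HISAT2, counted reads inside genes with HTSeq in Galaxy and deposited raw counts per gene symbol. The submitters' processing notes also list FastQC and deepTools, whereas their versions, the annotation of genes and how strand was set are not given in the sources used here.

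CPM were computed from the total of all counts of each library. Gene lengths and positions came from GENCODE on GRCh37, matched by symbol for 19311 of 23368 symbols and all 35 genes of the list. Libraries were compared, replicate 1 over replicate 2, with the exact binomial test of edgeR on genes with at least 10 counts over both, Benjamini-Hochberg adjusted at 0.05, with 0.5 added to counts in log2 ratios. Counts for 2 libraries over 13744 genes were also simulated, with Poisson error only and without a length trend. The 200 genes changed 2-fold were picked by a fixed seed among better counted genes, and 98.5% of them were called. Of the rest 0.0295% were called, a share that does not cover variation between libraries. A lowess trend with a span of 0.3 gave the expected ratio at each exonic length. No test between genes was made, as each had 2 values. The reads carried no molecular identifiers and are not independent molecules, so the test and limits cover counting error only.

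All 35 genes are named, and other pathway genes come from lists by role. The members and lists were chosen with earlier results of these data known. An entry of the marker lists was left out and is not reported here. The rule named the highest and the lowest gene of each such list by mean CPM, and further genes of those lists were named after their values were seen. Alternatives covered the minimum count, scaling, filter, gene length and each library left out, of which the canonical transcript and the coding sequence as lengths were chosen after seeing the data. The tools were edgeR 4.0.16 and DESeq2 1.42.0 (size factors only) in R 4.3.3, and scipy 1.17.1, pandas 2.3.3, numpy 2.4.6 and matplotlib 3.10.9 in Python 3.11.15.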

Additional observations from a re-analysis of the deposited data

How the results depend on the processing

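All 35 genes stayed at or above a minimum mean count of 10 and in each library alone at 20, and 34 reached a mean of 50. The median level of 54.6 CPM moved by less than the spread between libraries with TMM, DESeq2 or upper-quartile factors. It was 54.0 CPM without replicate 2, also within that spread, and 56.5 CPM without replicate 1, which moved by more than the spread. The 27 genes that differed between the libraries by totals numbered 27 with TMM factors, DESeq2 size factors and both other count filters, and 26 against the length trend, but 5 when a log2 ratio of at least 1 was also asked for. Against the length trend the log2 ratio changed sign for RRAS to −0.060, MAPK9 to 0.042, DUSP14 to −0.016 and PEA15 to −0.22, and for DUSP2 to −0.31 and DUSP10 to −0.22, which passed neither test. That alternative tests another expected ratio, which is set by gene length.

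Of 14 pairs of related genes, the first was higher in both libraries for 9 with all exons as length, for 9 with the longest transcript, 10 with the canonical transcript, 7 with the coding sequence and 7 without division, and for 10 to 10 with 1 library left out. The mean log2 ratio changed sign for RRAS over NRAS to −0.50 without division and −0.71 with the coding sequence, for MAPK3 over MAPK14 to −0.39 and −0.47, for SPRED2 over SPRED1 to −0.11 and −0.068, for NF1 over RASA1 to 0.0095 without division, for HRAS over NRAS to 0.15 with the longest and 1.01 with the canonical transcript, and for DUSP16 over DUSP10 to 1.08 without division and 0.61 with the coding sequence. In 7 of the 14 pairs the direction was the same in both libraries under all 4 lengths and without division. No paired analysis was possible because the libraries form a single group. A single condition with 2 libraries limits the values to levels.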
